A study of Mus musculus with 4 samples.

Results

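The TCP1 ring, also called TRiC or CCT, is the cytosolic chaperonin, and the mRNAs of its subunits were followed here in RNA brought down with an antibody against CPEB3. The subunit genes are Tcp1, Cct2, Cct3, Cct4, Cct5, Cct6a, Cct7 and Cct8. Members were chosen by name, as every probe on the array whose gene name is one of these 8 and which is no control spot. This gave 8 probes in 8 spots, 1 for each gene, of 55681 probes in all, and all 8 passed the filter on dim probes that left 40616 probes for the test. CPEB3 is an RNA-binding protein that controls the translation of neuronal mRNAs. The tissue came from male C57BL/6 mice of 8 weeks, with no transgene or deletion named in the labels. Corticohippocampal lysate was held for 3 h on beads that carried either CPEB3 IgG or control IgG, and the RNA of each precipitate was amplified, dyed with Cy3 and read on Agilent mouse arrays in 1 colour. Each group has 2 arrays. Whether the replicates were separate lysates is not in the labels, so the p-values cover the spread between these arrays alone, which may be technical. No array of the input lysate was analysed here, so a value compares the make-up of the 2 precipitates and not amounts in the tissue.

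The chaperonin folds newly made proteins inside a closed chamber. It is built of stacked rings, each made of one copy of every subunit, and it opens and closes as the subunits bind and split ATP. Actin and tubulin are its best known clients, which prefoldin hands over to it, and in neurons they build the cytoskeleton of axons and dendrites. The subunits are paralogs with a shared fold that differ in the surface that touches the client and in how readily they use ATP. In biochemical work on the ring, the subunits encoded by Tcp1, Cct2, Cct4 and Cct5 lie side by side and bind ATP readily, and those encoded by Cct3, Cct6a, Cct7 and Cct8 make up the other side.

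Since each subunit was read by 1 probe, the value of a gene is the value of that sequence, and the 60-base probes are shown for 7 of the subunits, 5′ to 3′ in the sense of the mRNA. They come from the deposited array files. Capitals in the Cct2 probe mark a run of bases that is also found in another probe of the array.
Tcp1: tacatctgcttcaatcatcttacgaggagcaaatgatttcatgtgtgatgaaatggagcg
Cct2: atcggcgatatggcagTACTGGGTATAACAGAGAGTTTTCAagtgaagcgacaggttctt
Cct4: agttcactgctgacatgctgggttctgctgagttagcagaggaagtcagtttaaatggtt
Cct3: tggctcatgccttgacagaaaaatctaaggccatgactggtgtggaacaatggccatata
Cct6a: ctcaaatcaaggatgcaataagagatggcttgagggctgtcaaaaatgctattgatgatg
Cct7: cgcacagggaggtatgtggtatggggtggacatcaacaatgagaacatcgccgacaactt
Cct8: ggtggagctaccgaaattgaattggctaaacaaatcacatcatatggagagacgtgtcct

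The files place the probes on the mm9 build and pair each with a RefSeq mRNA, so they are exonic. The Tcp1 probe lies at chr17:13116096-13116155 on the plus strand and the Cct2 probe at chr10:116490137-116490196 on the minus strand. The Cct3 probe is at chr3:88124479-88124538, that of Cct4 at chr11:22901396-22901455 and that of Cct6a at chr5:130300316-130300375, all on the plus strand. The Cct5 probe is at chr15:31520643-31520702 on the minus strand. The probes of Cct7 (chr6:85417773-85418099, plus strand) and Cct8 (chr16:87485981-87486129, minus strand) cover 327 and 149 bases of the genome with 60 bases, so these 2 cross an exon boundary. No gene annotation of mm9 was used, and coding and untranslated parts were not analysed here.

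All 4 arrays gave signal for the subunits without saturation. The 75th percentile of the signal, to which each array was scaled, was between 353 and 507 units, and 68.0% to 73.4% of probes were well above background. Across probes, which are not independent replicates, the correlation between replicate arrays was 0.986 for CPEB3 IgG and 0.977 for control IgG. Of the brain markers, all 5 of neurons, 4 of astrocytes, 4 of oligodendrocytes, 4 of microglia and 3 of endothelium were well above background on all arrays. At their brightest probes, 2 of these 20 markers were called lower, Aldh1l1 of astrocytes (−3.03) and Aif1 of microglia (−2.34), and 2 higher, Slc1a3 of astrocytes (3.16) and Rbfox3 of neurons (0.70). These calls are a smaller share than the 34.7% of all probes tested that were called. The log2 of the summed marker level was 3.77 to 4.28 with CPEB3 IgG and 4.54 to 4.73 with control IgG for microglia, and 5.57 to 6.37 and 5.08 to 5.42 for astrocytes. For neurons it was 8.15 to 8.21 and 7.97 to 8.03, for oligodendrocytes 6.47 to 6.73 and 6.54 to 6.83, and for endothelium 2.30 to 2.67 and 2.13 to 2.4. The astrocyte sum with CPEB3 IgG rests mostly on Slc1a3, and the median log2 difference of the 4 astrocyte markers was −0.11. The part of cell types in the subunits' values was not tested. The marker values compare the make-up of the 2 precipitates and do not measure numbers of cells. Of 3 genes of other tissues, Alb was above background on no array, whereas Ins2 and Myh6 were above it on all 4. The groups lie at different positions of 1 slide, so the antibody and the position on the slide cannot be told apart.

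All 8 subunit mRNAs were lower in the CPEB3 precipitate than in the control precipitate. The decrease ran from 3.40-fold for Cct2, the beta subunit, to 9.02-fold for Cct3, the gamma subunit, and the median of the 8 was 5.88-fold. With limma and Benjamini-Hochberg adjustment over all 40616 probes, 8 of 8 were called lower and 0 higher at an adjusted p under 0.05. Over all probes tested, 18.9% were called lower and 15.8% higher, 34.7% in either direction. These shares are not matched for brightness. With control IgG the subunit probes were brighter than 74.1% (Cct6a) to 96.5% (Cct5) of all probes tested. When only the 35661 probes well above background on all 4 arrays were tested, 22.6% were called lower. The median log2 difference, CPEB3 IgG minus control IgG, was −2.56 over the subunits and −0.19 over all probes tested. Each subunit was lower on both CPEB3 IgG arrays than on either control IgG array, which held for 42.7% of all probes tested. The gap between the nearest arrays of the groups was 1.5 to 2.76 log2 units. A call with a log2 difference below −2 was reached by 6 of 8 subunits and by 2.53% of all probes tested.

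**Figure D1:**
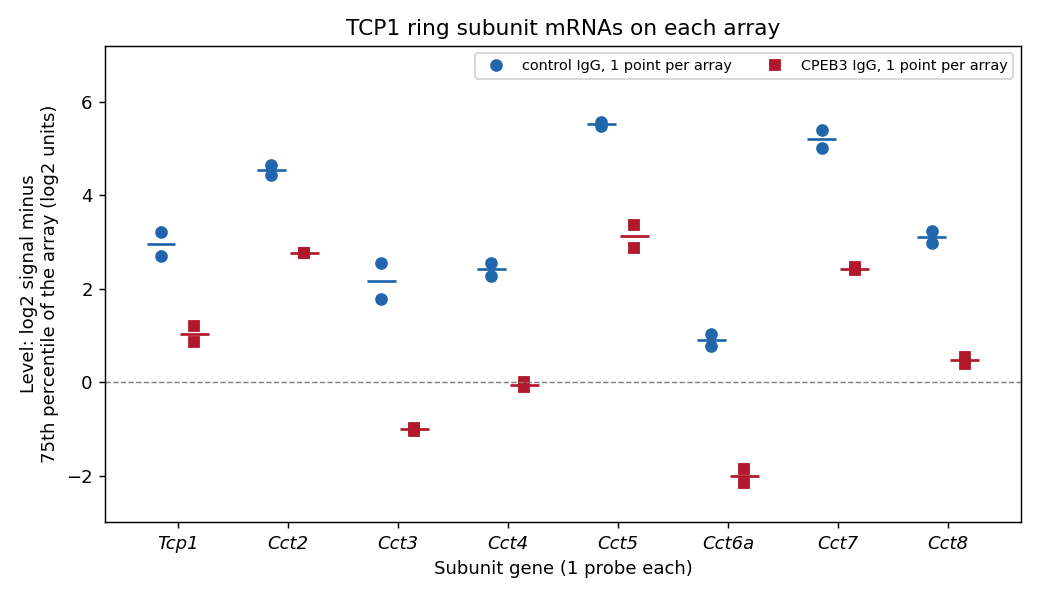
Levels of the 8 subunit mRNAs on each array, in log2 units relative to the 75th percentile of that array. Circles are the 2 control IgG arrays, squares the 2 CPEB3 IgG arrays and short lines the group means, and in every subunit both squares lie below both circles, by 1.5 to 2.76 log2 units.

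The 4 subunits that bind ATP readily fell by 3.40- to 5.54-fold. Tcp1 encodes the alpha subunit, for which the ring is named. Its level, in log2 units relative to the 75th percentile of the array, was 1.19 and 0.85 with CPEB3 IgG (replicates 1 and 2) against 2.69 and 3.22 with control IgG. The groups did not overlap, though the control arrays lay further apart than those of most other subunits (SD 0.37, n = 2). The log2 difference was −1.93 ± 0.26 (SE), 3.82-fold, with a limma adjusted p of 0.0103. This was the least firm of the 8 calls, which was lost without CPEB3 IgG replicate 1 (−2.10, adjusted p = 0.0510) and without CPEB3 IgG replicate 2 (−1.76, adjusted p = 0.0560).

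Cct2 encodes the beta subunit. Its 2 levels were 2.77 and 2.78 with CPEB3 IgG against 4.43 and 4.65 with control IgG. The CPEB3 IgG replicates were thus nearly equal (SD 0.0059, n = 2), and the difference was the smallest of the 8 at −1.77 ± 0.17 (SE, adjusted p = 0.00594). When arrays were scaled on their spike-in RNA, the calls of Cct2 (−1.05, adjusted p = 0.210) and Tcp1 (−1.22, adjusted p = 0.131) were lost. Under that scaling the median over all probes moved from −0.19 to 0.52, so the difference of every probe stood higher by the same step. The 8 subunits ran from −2.46 (Cct3) to −1.05 (Cct2). CPEB3 IgG replicates 1 and 2 had spike-in levels of 13.08 and 13.44 (log2) and 75th percentiles of 507 and 353 units. Spike-in scaling thus moved replicate 1 up against replicate 2 at every probe, relative to the main scaling. Over all probes tested, 966 were called lower, against 7688 in the main fit. The part of this shift between the replicates in the lost calls was not tested.

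Cct4, the delta subunit, lay at −0.0018 and −0.10 with CPEB3 IgG against 2.28 and 2.55 with control IgG. All its arrays were close to those of the same antibody, and it was 5.54-fold lower (−2.47 ± 0.18, SE, adjusted p = 0.00527). Cct5, the epsilon subunit, lay at 3.38 and 2.87 with CPEB3 IgG against 5.57 and 5.49 with control IgG. Here the CPEB3 IgG arrays stood apart from each other (SD 0.36, n = 2) and the control arrays agreed closely (SD 0.062, n = 2). Cct5 was 5.31-fold lower (−2.41 ± 0.23, SE, adjusted p = 0.00590).

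The subunits of the other side of the ring fell by 6.25- to 9.02-fold, with log2 differences from −3.17 to −2.64 against −2.47 to −1.77 for Tcp1, Cct2, Cct4 and Cct5. This split was made after the values were seen and was given no test. It was not clean with normexp background correction, where Cct6a (−2.31) fell less than Cct4 (−2.34) and Cct5 (−2.43). Cct3 lay at −0.97 and −1.04 with CPEB3 IgG against 1.78 and 2.55 with control IgG. Its control arrays differed more than those of any other subunit (SD 0.54, n = 2), and its interval was the widest. In the main fit it was the most depleted at 9.02-fold (95% interval 5.15 to 15.8, log2 difference −3.17 ± 0.30, SE, adjusted p = 0.00580). With normexp background correction its difference was −2.87. The CPEB3 IgG levels of Cct3 lay below those of Ins2 (−0.26 and −0.0026), a gene of another tissue, and the part of background was not tested.

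Cct6a encodes the zeta subunit. It had levels of −2.17 and −1.87 with CPEB3 IgG against 0.78 and 1.04 with control IgG. Its probe carried the scanner's flag for well above background on all 4 arrays, and it was 7.60-fold lower (−2.93 ± 0.20, SE, adjusted p = 0.00527). With normexp background correction the difference was −2.31, over 1.5 times smaller as a fold. Ins2 and Myh6, genes of other tissues, carried the same flag, and the part of background in the low CPEB3 IgG signal of Cct6a was not tested. Cct7, the eta subunit, lay at 2.46 and 2.39 with CPEB3 IgG against 5.02 and 5.40 with control IgG. It was 6.88-fold lower (−2.78 ± 0.20, SE, adjusted p = 0.00527). Cct8, the theta subunit, lay at 0.54 and 0.40 with CPEB3 IgG against 2.99 and 3.23 with control IgG, and was 6.25-fold lower (−2.64 ± 0.18, SE, adjusted p = 0.00527). In both, the step between the antibodies was far larger than the spread within either group, which was at most an SD of 0.27 (n = 2).

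**Figure D2:**
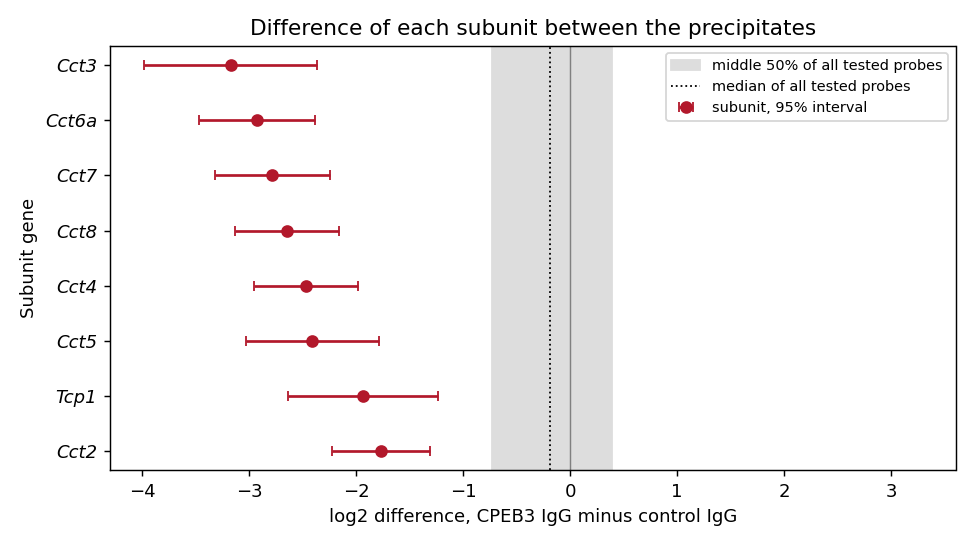
Log2 difference of each subunit between CPEB3 IgG and control IgG, with 95% intervals from the limma fit (2 arrays a group). The grey band is the middle 50% of all 40616 probes tested and the dotted line their median of −0.19, and all 8 intervals lie below the band.

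From the largest to the smallest decrease in the main fit, the order was Cct3, Cct6a, Cct7, Cct8, Cct4, Cct5, Tcp1 and Cct2. The 95% intervals overlapped in each of the 7 neighbouring pairs, which does not show that neighbours were alike. In 3 of the 7, the log2 ratio of the pair within an array did not overlap between the antibodies. These were Cct7 over Cct8, lower by −0.14 with CPEB3 IgG, Cct8 over Cct4 (−0.17) and Cct5 over Tcp1 (−0.48). With 2 arrays a group, such a gap arises readily without any difference. Its share among other pairs of probes was not counted, so these 3 pairs are not shown to differ. Of all 28 pairs, 3 had intervals that did not overlap, and each of these involved Cct2, against Cct3, Cct6a and Cct7. The interval of Cct2 ran from −2.23 to −1.31, that of Cct3 from −3.98 to −2.36, that of Cct6a from −3.47 to −2.38 and that of Cct7 from −3.32 to −2.25. No test was run on the differences between subunits, and their order moved with the processing. With normexp background correction, Cct6a (−2.31) fell less than Cct5 (−2.43) and Cct4 (−2.34). Without control IgG replicate 2, Cct6a (−2.80) fell slightly more than Cct3 (−2.79). Among all probes tested, counted from the most depleted, Cct3 stood at rank 219 and Cct2 at rank 1924, with the other subunits between them.

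**Figure D3:**
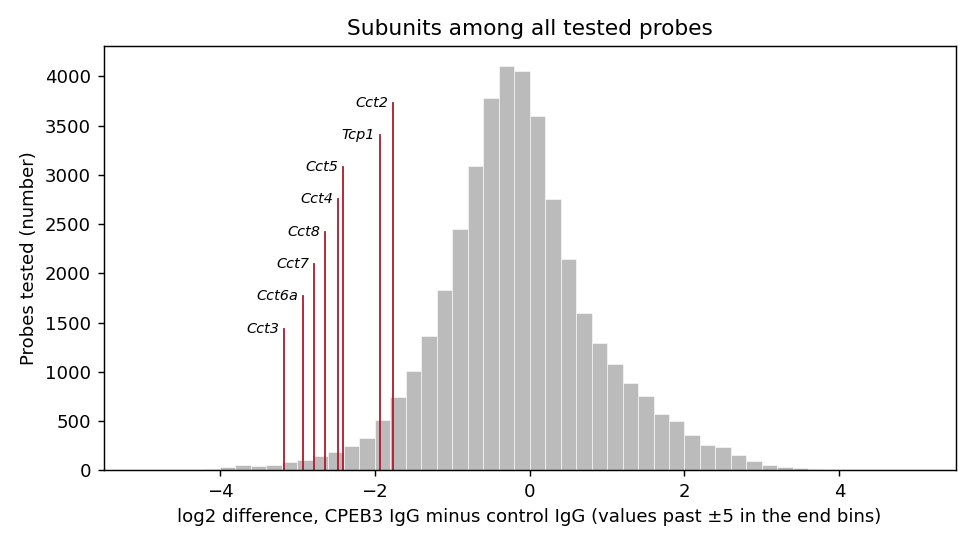
Number of probes tested by log2 difference, CPEB3 IgG minus control IgG, in bins of 0.2 with values past ±5 in the end bins. Red lines mark the 8 subunits (their heights only separate the names), which lie in the lower tail between −3.17 and −1.77.

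The subunit probes were compared by their start, counted from the 5′ end of the mRNA, and their distance from the 3′ end was not analysed. They start between bases 1207 (Cct6a) and 2020 (Cct7) of their transcripts, with Cct4 at 1209, Tcp1 at 1210, Cct8 at 1314, Cct3 at 1353, Cct2 at 1558 and Cct5 at 1705. Over all probes of RefSeq mRNAs the difference moved with this position. The median log2 difference was −0.54 for 1806 probes that start within the first 500 bases and 0.61 for 1958 probes that start past base 5000. For the 4861 other RefSeq mRNA probes that start in the same stretch as the subunits the median was −0.17, with 22.0% called lower and 17.8% higher. Of those probes, 5.31% had a difference below that of Cct2, the least depleted subunit. The part of probe position in the subunits' decrease was not tested further, since none of the 8 has another probe.

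**Figure D4:**
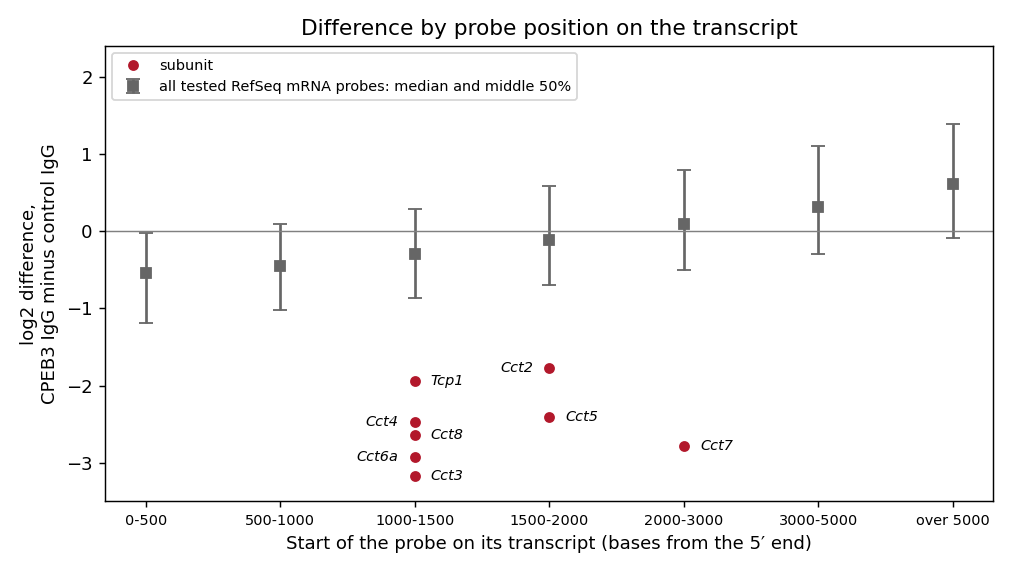
Log2 difference, CPEB3 IgG minus control IgG, by the start of the probe on its transcript. Squares with bars are the median and the middle 50% of all tested RefSeq mRNA probes in each stretch, which rise from −0.54 to 0.61, and red points are the 8 subunits, all below the bars of their stretch.

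The subunit probes held 38.3% to 51.7% G and C, against a median of 43.3% over all probes tested, and 18.3% to 31.7% T, against a median of 28.3%. The CPEB family is named for binding to U-rich cytoplasmic polyadenylation elements in the 3′ untranslated region. The DNA letters of the common forms of that element, TTTTAT and TTTTAAT, searched on the mRNA strand, were found in 0 of the 8 subunit probes, and in 3.71% and 0.901% of all probes tested. This says only that these letters are not within the 60 bases read, and whether CPEB3 itself binds this element was not tested. The polyadenylation hexamer AATAAA was in the Cct5 probe, at 2 places, and in no other subunit probe, and 11% of all probes tested held it.

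Of the 8 probes, 7 shared no run of 20 bases with any other probe on the array. The Cct2 probe shared 25 bases, its bases 17 to 41 printed in capitals above, with a probe that the files name only as NAP068632-1 and place elsewhere on chromosome 10, at chr10:103356262-103356321. In all, 37 of the 60 bases matched at the best ungapped position. That probe was lower too, by −1.98 ± 0.16 on the log2 scale (SE, adjusted p = 0.00527), with levels of −4.27 and −4.36 with CPEB3 IgG against −2.38 and −2.29 with control IgG. Whether the same RNA binds to both was not tested. The RefSeq table used for names lists the pseudogenes Cct3-ps1 and Tcp1-ps1, and whether their RNA reaches these probes was not tested either.

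Calls among the ring's partners were mixed. As background, 18.9% of all probes tested were called lower and 15.8% higher, 34.7% in either direction. Prefoldin, which carries unfolded actin and tubulin to the ring, had 3 of 6 subunits lower and 0 higher at their brightest probes, with a median log2 difference of −0.63. Pfdn6 was lower by −2.86 ± 0.17, Pfdn1 by −1.71 ± 0.19 and Pfdn5 by −1.002 ± 0.18 (SE, limma adjusted p = 0.00527, 0.00746 and 0.0183). Pfdn6 kept its call in all settings tried, whereas Pfdn1 lost it without CPEB3 IgG replicate 1 (−1.75, adjusted p = 0.0501) and with spike-in scaling (−0.99). Pfdn5 was not called with median, spike-in or no scaling, nor when whichever array was left out (−1.13 to −0.87). The phosducin-like proteins, which bind the ring and adjust its folding of clients, had 1 of 4 higher and 0 lower. That gene was Pdcl3 (1.23 ± 0.17, SE, adjusted p = 0.0109), whose call was lost without CPEB3 IgG replicate 1 (1.32) or 2 (1.14). Of the other 3 probes of these genes, 2 were called lower and 0 higher, both of them for Txndc9 (−1.73 and −0.96), a gene not called at its brightest probe. The 1 call in 4 phosducin-like genes is not above the background of 34.7%.

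Of the tubulin folding cofactors, which assemble tubulin dimers from monomers released by the ring, 3 of 5 were lower and 0 higher (median −0.84). Among all probes tested, 18.9% were called lower. Tbcc fell by 2.05, Tbcb by 1.27 and Tbcd by 0.84 on the log2 scale (adjusted p = 0.00534, 0.0103 and 0.0245). Leaving out CPEB3 IgG replicate 1 (−1.23) or 2 (−1.30) ended the call of Tbcb, and leaving out whichever of the 4 arrays ended that of Tbcd (−0.95 to −0.74). With spike-in scaling 0 of the 5 were called.

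The clients that build the cytoskeleton fell together with the ring. All 12 actin and tubulin genes of the list were called lower, against 18.9% of all probes tested, with a median log2 difference of −2.0. The largest decreases were those of Tubb4a (−3.09 ± 0.21, SE), Tuba1a (−2.74 ± 0.20) and Tuba4a (−2.48 ± 0.17), each with an adjusted p of 0.00527. Cytoplasmic actin, Actb, was lower by −2.15 ± 0.16. Of the other probes of these genes, 5 of 7 were called lower as well. Genes of this family are close paralogs, so their probes may share RNA. The count of 12 was 9 with median scaling, 9 without the filter on dim probes, and 3 with spike-in scaling, which left Tubb4a, Tuba1a and Tuba4a. Median scaling and leaving out the filter each ended the calls of Actg1, Tubb2b and Tubb4b (limma adjusted p = 0.0464, 0.0406 and 0.0264 in the main fit). With 1 array left out, the log2 difference ran from −1.095 to −0.62 for Actg1. It ran from −1.69 to −1.03 for Tubb2b and from −1.59 to −1.06 for Tubb4b. The members and lists were chosen with earlier results of these data known, and the cytoskeletal decrease had been seen before.

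Of 13 signalling and cell cycle proteins reported as clients, 2 were lower, 2 higher and 9 not called, with a median of −0.044. These 4 calls of 13 are near the background, since 34.7% of all probes tested were called. Gnb4, a beta subunit of heterotrimeric G proteins with the WD-repeat fold that the ring closes, was lower by −1.91 ± 0.15 (SE, adjusted p = 0.00527), a call lost with spike-in scaling (−1.19). Vhl, the tumour suppressor that marks hypoxia-inducible factor for degradation, was higher by 1.16 ± 0.21 (adjusted p = 0.0193). Its call was lost without CPEB3 IgG replicate 1 (1.05), CPEB3 IgG replicate 2 (1.27) or control IgG replicate 2 (0.98). The transcription factor Stat3 (−0.84 ± 0.18, adjusted p = 0.0278) and the G protein subunit Gnb1 (0.81 ± 0.16, adjusted p = 0.0245) lost their calls without any one of the 4 arrays. The other probe of Gnb1 gave −0.089 (adjusted p = 0.716), and the mean of its probes 0.36 (adjusted p = 0.136). Of the 5 other probes in this list, 2 were called lower, for Gnb5 (−1.04) and Fzr1 (−1.77), and 0 higher. With the mean of each gene's probes the list had 1 gene higher and 4 lower.

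The list of other chaperonin genes holds relatives of the ring subunits and, with the mitochondrial chaperonin, its partner Hspe1, which is no relative of them. Of its 7 genes, Cct8l1 did not pass the filter on dim probes, and of the other 6, 2 were higher and 0 lower (median 0.62), where 15.8% of all probes tested were called higher. Mkks, a chaperonin-like protein of the Bardet-Biedl syndrome complex, was higher by 0.90 ± 0.17 (SE, adjusted p = 0.0214). Hspe1, a co-chaperonin that caps the mitochondrial chaperonin, was higher by 0.89 ± 0.22 (adjusted p = 0.0391), and its other 2 probes were called higher too. The calls of Mkks (0.80 to 1.00) and Hspe1 (0.68 to 1.1) were lost without any one of the 4 arrays, without the filter on dim probes and without scaling. Cct6b, the paralog of Cct6a known from testis, was named after its value was seen and differed by −0.25 ± 0.19 (adjusted p = 0.353).

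**Figure D5:**
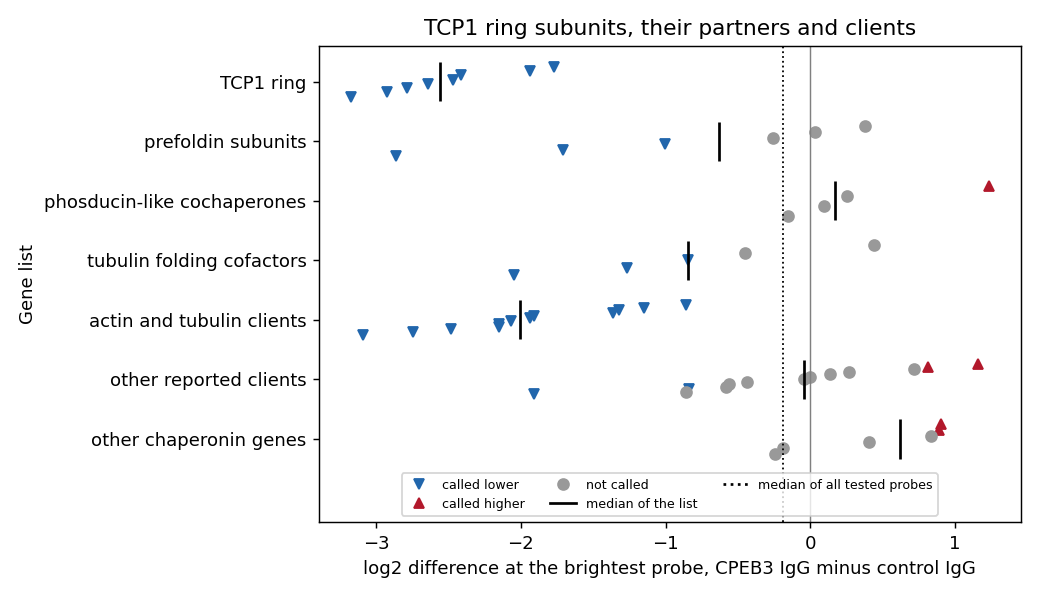
Log2 difference at the brightest probe of each gene in the ring and in 6 lists of partners, clients and other chaperonin genes, with triangles for calls at a limma adjusted p under 0.05 and grey circles for genes not called. The medians (short lines) of the ring, −2.56, and of actin and tubulin, −2.0, lie furthest left, and that of other chaperonin genes is 0.62.

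Probe position also moved with the difference inside these lists. Of 14 genes with several probes on the same RefSeq mRNA, the probe nearest the 5′ end had the lower difference in 13, a comparison made after the values were seen. Some steps were small, as in Tbcd (−0.88 and −0.84) and Hspe1 (0.79 and 0.89). Probes outside this count did not all follow the order. Tbcd gave −0.13 at base 3, and Txndc9 gave −0.15 at base 999, between −1.73 at base 708 and −0.96 at base 4536. In Actg1, the other cytoplasmic actin, the difference was −2.68 at base 624 and −0.77 at base 1841. In Vbp1, a prefoldin subunit that was not called at its brightest probe (−0.26 at base 1014), a probe at base 355 was lower by −1.37. Fzr1, an activator of the anaphase-promoting complex, gave −1.77 at base 1521 and −0.56 at base 1991. With 1 probe each, the subunits of the ring offer no such comparison.

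The mRNAs whose profile over the 4 arrays came nearest to that of the ring were Chmp2a, a subunit of the membrane-cutting ESCRT machinery, Cyb5r3, a cytochrome b5 reductase, Psmd8, a proteasome subunit, and Stx8, a syntaxin of endosomes. Likeness was the root mean square distance over 4 arrays between levels centred on each probe's mean and the median profile of the subunits, and 16441 genes with a RefSeq mRNA were compared. These 4 lay at distances of 0.031 to 0.038 log2 units, whereas the subunits themselves lay at 0.032 (Cct8) to 0.41 (Cct2). In all, 471 genes came nearer than Cct2, so over 4 arrays this profile does not single out the ring.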

How the data were processed

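Per the file headers, the authors' deposited files hold 1-colour spot intensities from Agilent Feature Extraction 10.5.1.1, background-subtracted and spatially detrended within each array with no scaling between arrays. An alternative used the mean and the local background intensities that the authors deposited. No source used here gives the authors' test.

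Of 59305 spots that are no controls, outlier-flagged spots (123 to 223 an array) were left out. Values are log2 of the processed signal, averaged over the spots of a probe, minus the 75th percentile of the array over probes. The 40616 probes that at least 2 of 4 arrays gave as well above background entered a limma fit (version 3.58.1, R 4.3.3, lmFit and eBayes with no block) and were called at a Benjamini-Hochberg adjusted p under 0.05. The 95% intervals use the moderated degrees of freedom. Lists use the brightest probe of a gene, with symbols updated through RefSeq accessions with a GRCm38 table used for names only (27509 probes matched). By the naming rule the text gives every subunit, up to 3 called genes a list in each direction, Actb and the 4 nearest profiles. The cell type markers with calls, Txndc9, Cct6b, Gnb5 and the genes of the position comparison were chosen after their values were seen. Alternatives changed the background correction, scaling, filter, variance prior, replicate block, probes per gene and arrays used. The members and lists were chosen with earlier results of these data known. The number of arrays limits the precision. The fit was tested on simulated data.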

Additional observations from a re-analysis of the deposited data

How the results depend on the processing

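Of 17 other settings of the fit, 14 called all 8 subunits lower. Spike-in scaling called 6, and leaving out either CPEB3 IgG array called 7. At an adjusted p under 0.01 the main fit called 7. No subunit changed sign. The median of the subunits ranged from −2.69 to −1.84, and relative to the median of all probes from −2.65 to −2.26. The share of higher among all calls was 45.5%, and 53.8% with quantile, 66.2% with median, 87.0% with spike-in scaling. All calls numbered 14111, 7441 with spike-in scaling, 9352 without the filter, 4750 at adjusted p under 0.01, and 4424 to 10057 with 1 array left out. With the replicate number as a block there were 15848 calls and again 8 subunits. The labels do not say that the numbers pair samples, and same-numbered arrays had deviations that correlated at 0.356 over probes.

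Calls in the lists moved as follows. The 13 other clients (4 calls) had 8 with normexp, 7 with quantile scaling, 7 with the filter on all 4 arrays, 9 with an intensity trend, 2 with spike-in scaling, 1 without scaling and 2 without the filter. Other chaperonin genes (2) had 4 with quantile or median scaling and 0 without scaling or filter. Spike-in scaling left 1 prefoldin gene of 3, 0 tubulin cofactors of 3 and 3 of 12 actin and tubulin genes. Phosducin-like genes (1) had 2 with the mean of probes. With 1 array left out the ranges were 1 to 2 (other clients), 0 to 0 (other chaperonin genes), 0 to 1 (phosducin-like), 1 to 2 (prefoldin) and 1 to 2 (tubulin cofactors). The cause of these shifts was not tested. All arrays share 1 slide, so a slide block could not be fitted. No alternative was added to those planned, though earlier results of these data were known when the members and lists were chosen.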
